A study of Sus scrofa with 50 samples.

Results

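The proteasome genes of the pig were followed through early development in 50 single embryos, each sequenced on its own with Smart-seq2, a protocol that amplifies full-length cDNA from very small amounts of RNA. Members were chosen by name: every NCBI gene identifier whose symbol begins with PSMA, PSMB, PSMC, PSMD, PSME, PSMF or PSMG was taken, and those over 0.5 CPM in at least 1 embryo were kept. CPM stands for reads per 1000000 of the effective library size set by the authors. The rule kept 48 of 49 genes, among 23076 of 30321 identifiers that reached the same level. The gene left out was PSMB11, a core subunit of the thymus, which reached 0.240 CPM and had 1 read in the 49 embryos whose recovered reads were used.

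In vivo developed embryos were flushed from German Landrace × Pietrain gilts on day 2, 4 or 6 after insemination with semen of the Duroc boar that also served for in vitro fertilization, and comprised 5 embryos at the 4-cell stage, 10 morulae and 10 hatched blastocysts. In vitro produced embryos, from oocytes matured and fertilized in culture, were taken 48 h, 100 h and 7.25 days after fertilization, again with 5, 10 and 10 embryos at these stages. The labels mark morulae and hatched blastocysts as female or male, both sexes being present in each of these groups, and 4-cell embryos were not sexed. Sex was not used in the tests. The flushed gilts had been synchronized with Altrenogest and given PMSG and human chorionic gonadotropin, hormones that trigger follicle growth and ovulation, and the oocytes of the in vitro groups were matured with gonadotropins, FGF2, LIF and IGF1. Each group came from fewer gilts or culture experiments than it had embryos, and which embryos share one is not given, so every p-value measures the spread between embryos that are partly not independent. A whole embryo was 1 sample, so fewer cells of a type and less RNA per cell cannot be told apart. The study describes lower RNA quality, input and cDNA yield for in vivo 4-cell embryos and unequal RNA quality between sources at the 4-cell and morula stages, and it compared the sources only at the hatched blastocyst stage.

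The proteasome is the main protease for proteins tagged with ubiquitin. Its core particle is a barrel of stacked alpha and beta rings whose proteolytic sites lie on the beta subunits PSMB5, PSMB6 and PSMB7, and its regulatory cap recognises, unfolds and feeds in the substrate. In cells exposed to interferon the proteolytic subunits are replaced by PSMB8, PSMB9 and PSMB10, giving the immunoproteasome, which favours peptides for antigen presentation. Early embryos degrade many proteins inherited from the oocyte, and in the pig the main activation of the embryonic genome falls at the 4-cell stage.

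By role the 48 genes were 7 alpha ring genes (PSMA1 to PSMA7), 3 catalytic and 4 structural beta ring genes (PSMB1 to PSMB4), 3 immunoproteasome genes, PSMA8 (an alpha subunit of the testis that replaces PSMA7), 6 cap ATPases (PSMC1 to PSMC6), 3 other genes of the cap base (PSMD1, PSMD2 and PSMD4), 8 lid genes, 3 chaperones of cap assembly (PSMD5, PSMD9 and PSMD10), 4 chaperones of core assembly (PSMG1 to PSMG4), 4 activators (PSME1 to PSME4), the inhibitor PSMF1, and PSMC3IP. The last, a protein of meiotic recombination, belongs to the list by name only. Transcript lengths were not used, so levels are compared within a gene and not between genes.

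Reads assigned to genes, recovered from the CPM, ran from 1438600 to 7714793 per embryo in 49 embryos (median 4293995), with 3 embryos under 2 M reads. The study reports more reads sequenced per embryo, so these counts are not the full sequencing depth. The median number of genes with a read was 10914, 13740 and 14710 in in vivo 4-cell embryos, morulae and hatched blastocysts, and 16554, 15347.5 and 14654.5 in the in vitro groups. In vivo 4-cell embryo C1 stood apart with 6209 genes and with values summing to 455368 CPM. In vitro morula B2 held 2079 CPM of the 9 listed oocyte genes, against a group median of 159. The 8 trophectoderm genes summed to a median of 2395 CPM in in vivo and 190 CPM in in vitro morulae, and to 5639 and 8493 CPM in the hatched blastocysts, the outer cell layer being the main tissue there. Of the 9 leukocyte genes, summed to a median of 102 CPM (27.9 to 430) in in vitro and 3.46 CPM (1.16 to 19.9) in in vivo hatched blastocysts, AIF1 alone gave a median of 99.3 CPM in vitro, while PTPRC, the common leukocyte antigen, was at 0 there.

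Between 4-cell embryos and morulae most genes of the proteasome core were higher in the later stage in both sources, and fewer of the cap. A gene was called where limma on log2(CPM + 1) gave an adjusted p under 0.001 and a log2 change over 1 in size, and such a change understates that of genes near 0. In in vivo embryos 24 of 48 members were called higher and 0 lower, where 14.9% of all genes tested were called higher and 7.86% lower. The median change of the members was 2.78 log2 units, beside 0.21 for all genes. The size of this gap depended on the genes and method used. Among genes over 1 CPM in at least 5 embryos the median of all genes was 1.08, still under that of the members. With edgeR and DESeq2, run on recovered reads, the medians were 2.56 beside 0.79 and 2.52 beside 0.75. At an adjusted p under 0.05 of any size, 33 members were higher and 2 lower (27.9% and 17.3% of all genes), and at an unadjusted p under 0.05, 35 and 2. The share of all genes at an unadjusted p under 0.05 was not counted, here or in the comparisons below. On recovered reads of 4 of the 4-cell embryos, edgeR called 12 higher, all among the 24, and 0 lower, and DESeq2 called 22 higher and 1 lower, PSMD11. The 22 included PSMB9, which limma did not call. In in vitro embryos 24 of 48 were called higher and 3 lower, where 16.0% and 22.7% of all genes were, with medians of 1.59 and -0.14, and 28 were higher and 6 lower at an adjusted p under 0.05 (24.1% and 34.1%). Of the 24 genes called higher in each source, 21 were called in both, which is 87.5% of each list, while of all genes called higher the shared ones were 75.0% of the in vivo and 63.9% of the in vitro list. Without embryo C1 the in vivo count was 22 higher and 1 lower, again PSMD11, and the median of the members was 2.10.

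**Figure D1:**
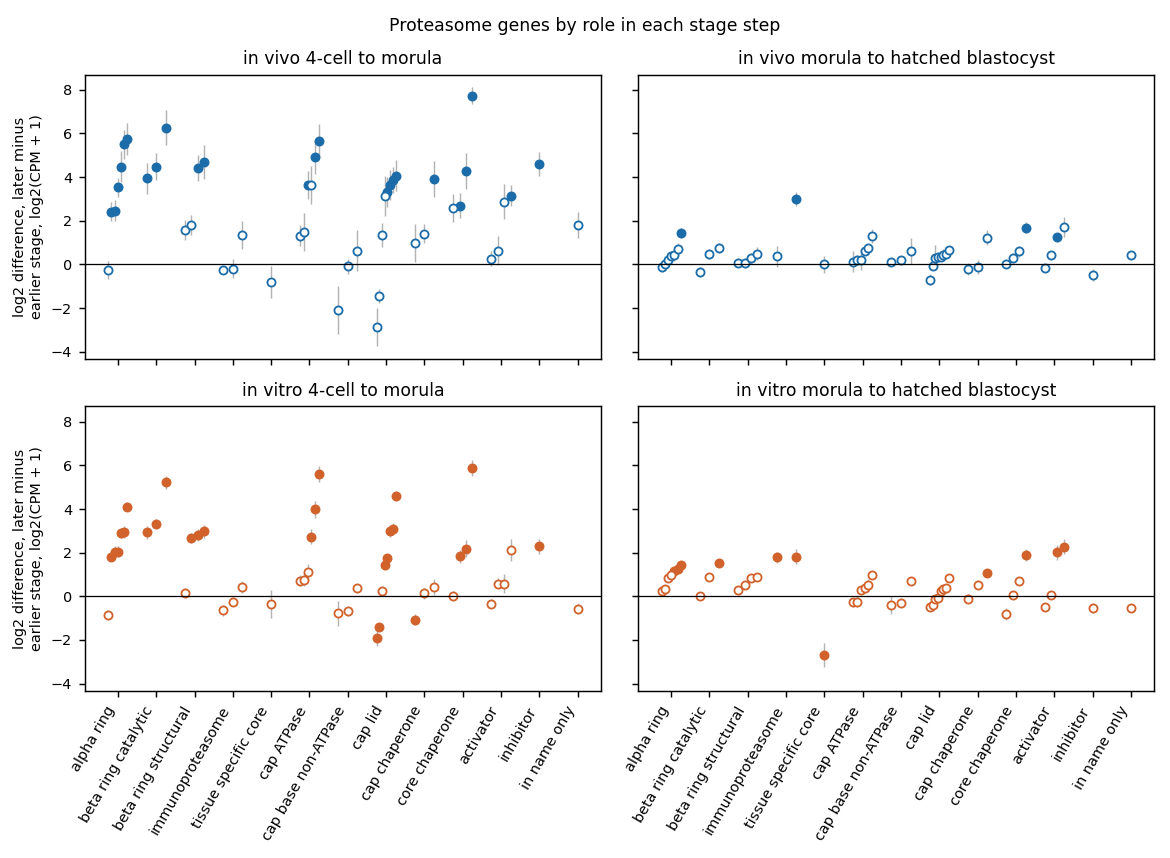
Each point is 1 proteasome gene, plotted by role (x axis) against its log2 difference between successive stages on the log2(CPM + 1) scale (y axis), in 4 panels for the steps of each source, with filled points for called genes and grey lines of 1 SE on each side. In the panels of the first step the 3 catalytic genes lie between 2.94 and 6.26, while the 3 base genes lie between -2.10 and 0.63.

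All 3 constitutive catalytic genes were higher in every morula than in any 4-cell embryo of the same source. How many of all genes had ranges without overlap was not counted, here or for the genes below. PSMB5 (gene 100155139, chromosome 7, 76014576 to 76021922 on Sscrofa11.1), the chymotrypsin-like subunit, stood at 29.0, 21.9, 0.891, 38.0 and 61.2 CPM in the in vivo 4-cell embryos A1 to E1, and at 239, 445 and 820 CPM (lowest, median and highest) in the morulae. The in vitro 4-cell embryos had 26.5, 21.3, 44.6, 24.6 and 24.2 CPM of it and the morulae 162, 291 and 483 CPM. The ranges did not touch in either source, and the rise was 4.48 log2 units in vivo (SE 0.61, adjusted p = 6.3e-06) and 3.32 in vitro (SE 0.25, adjusted p = 2.8e-10).

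PSMB6 (gene 497065, chromosome 12, 52096009 to 52098164), the caspase-like subunit, was at 241, 315, 3.34, 79.6 and 35.3 CPM in in vivo and 79.9, 51.7, 276, 62.8 and 84.6 CPM in in vitro 4-cell embryos. Morulae held 510, 983 and 1517 CPM in vivo and 432, 673 and 1180 CPM in vitro. The 4-cell values varied widely within a group, yet every morula exceeded them, by 3.94 log2 units in vivo (SE 0.71, adjusted p = 0.000134) and 2.94 in vitro (SE 0.30, adjusted p = 2.5e-08).

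PSMB7 (gene 100037992, chromosome 1, 265172257 to 265235389), the trypsin-like subunit, had the widest step of the 3. It was listed at 21.6, 0, 63.2, 25.6 and 0 CPM in in vivo and 18.2, 13.6, 21.3, 3.36 and 9.57 CPM in in vitro 4-cell embryos, against 296, 687 and 1074 CPM in in vivo and 371, 465 and 717 CPM in in vitro morulae. The step was 6.26 log2 units in vivo (SE 0.80, adjusted p = 2.6e-06) and 5.22 in vitro (SE 0.29, adjusted p = 8.2e-12).

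**Figure D2:**
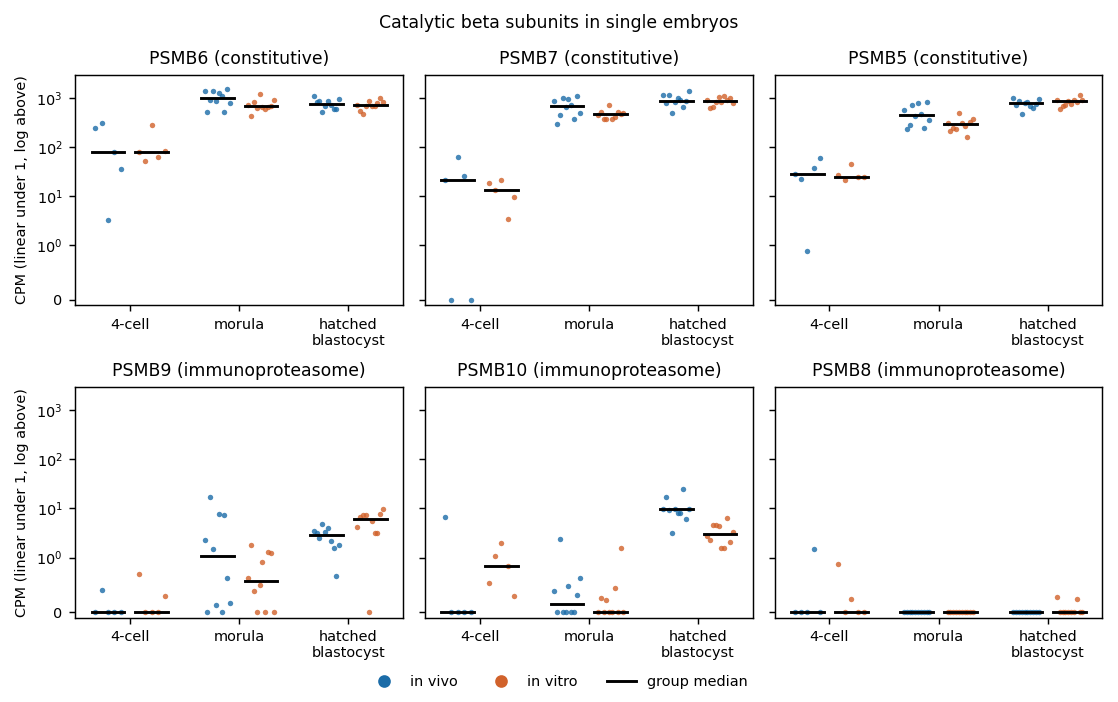
CPM of the 3 constitutive (upper row) and the 3 immunoproteasome catalytic genes (lower row) in every embryo, by stage on the x axis and source by colour, with a bar at each group median and a y axis that is linear under 1 and logarithmic above. The constitutive genes sit at 0 to 315 CPM in 4-cell embryos and at 162 CPM or more in all morulae, PSMB9 and PSMB10 stay at or under 25.2 CPM throughout, and PSMB8 is at 0 in all morulae.

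Among the alpha ring genes, whose subunits form the gate of the core, 6 of 7 were called higher in each source, with class medians of 3.53 log2 units in vivo and 2.05 in vitro. PSMA1 was at 15.3, 2.83, 0, 74.3 and 33.1 CPM in the in vivo 4-cell embryos and at 263, 714 and 1007 CPM in the morulae. In vitro 4-cell embryos had 57.0, 22.9, 30.0, 75.7 and 61.3 CPM and morulae 232, 331 and 665 CPM of it. These ranges were apart in both sources, with steps of 5.74 (SE 0.74, adjusted p = 2.8e-06) and 2.96 log2 units (SE 0.28, adjusted p = 9.7e-09). PSMA6 rose by 5.50 log2 units in vivo (SE 0.66, adjusted p = 1.3e-06), from 11.9, 0, 47.9, 22.0 and 23.5 CPM to 205, 660 and 977 CPM. In vitro its step was 4.11 (SE 0.22, adjusted p = 5.9e-12), from 28.4, 16.5, 35.6, 25.4 and 17.6 CPM to 322, 399 and 614 CPM. The exception was PSMA7, the alpha subunit that PSMA8 replaces in the testis. It was at 259, 125, 79.5, 234 and 208 CPM in in vivo 4-cell embryos, where the morulae held 71.9, 140 and 299 CPM, a difference of -0.26 log2 units with overlapping ranges (SE 0.42, adjusted p = 0.62). In vitro its difference was -0.85 (SE 0.24, adjusted p = 0.0048), between 4-cell medians of 280 CPM and morula medians of 175 CPM.

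Of the 4 structural beta genes, 2 were called higher in vivo and 3 in vitro, with medians of 3.11 and 2.74 log2 units. PSMB1 was at 167, 45.4, 0, 74.4 and 19.9 CPM and then at 406, 740 and 1029 CPM in vivo, a rise of 4.69 (SE 0.78, adjusted p = 6.1e-05). PSMB3 rose by 4.42 in vivo (SE 0.59, adjusted p = 5.0e-06), from 19.7, 6.36, 0, 8.17 and 12.1 CPM to 62.8, 151 and 340 CPM. None of these ranges overlapped. In vitro PSMB4 rose by 2.98 (SE 0.31, adjusted p = 3.2e-08), from 28.7, 38.9, 103, 13.2 and 29.0 CPM to 196, 269 and 416 CPM. PSMB3 rose there by 2.79 log2 units (SE 0.28, adjusted p = 1.4e-08), from a 4-cell median of 15.4 CPM to a morula median of 124 CPM. PSMB2 was the structural gene with the smallest difference in both sources (1.57 in vivo, adjusted p = 0.0076, and 0.17 in vitro, adjusted p = 0.51). Its in vitro ranges overlapped, with 269, 394 and 621 CPM at the 4-cell stage and 328, 416 and 697 CPM at the morula stage.

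Fewer genes of the cap than of the core were called. Of the 17 cap subunit genes, 7 were called higher in vivo and 8 in vitro, where 2 were called lower, against 11 and 12 of the 14 core genes, and the medians were 3.12 and 1.11 log2 units for the cap and 4.18 and 2.85 for the core. Within the cap the ATPases, the ring that unfolds substrates, had 3 of 6 called higher in each source (medians 3.62 and 1.92). PSMC6 was at 0, 0, 17.4, 37.2 and 29.0 CPM in in vivo and 13.1, 3.52, 2.42, 3.36 and 0.897 CPM in in vitro 4-cell embryos. Morulae held 146, 413 and 539 CPM in vivo and 107, 229 and 357 CPM in vitro, all above the 4-cell embryos, and the steps were 5.67 (SE 0.75, adjusted p = 4.2e-06) and 5.61 log2 units (SE 0.36, adjusted p = 3.5e-11). PSMC5 was listed at 0.651, 8.17, 0, 0 and 0 CPM in in vivo 4-cell embryos and reached 10.0, 72.4 and 248 CPM in morulae, a step of 4.93 (SE 0.79, adjusted p = 3.9e-05). In vitro it went from 11.0, 0.879, 2.91, 8.20 and 3.89 CPM to 35.0, 86.9 and 166 CPM, a step of 3.99 (SE 0.39, adjusted p = 1.3e-08). PSMC1, PSMC2 and PSMC3 were called in neither source, with steps between 0.72 and 3.62 log2 units. PSMC2 was called in vivo by limma without 4-cell embryo A1 (adjusted p = 0.000915) or B1 (adjusted p = 0.000391). It was also called with CPM rescaled by median of ratios (adjusted p = 0.000844).

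The 3 other base genes had no called change in either source, with limma giving unadjusted p-values from 0.0707 to 0.807 in vivo and from 0.00992 to 0.184 in vitro. The medians of their changes were -0.09 and -0.66 log2 units. PSMD1 and PSMD2 form the scaffold of the base and PSMD4 is a ubiquitin receptor. PSMD4 went in vivo from 59.2, 154, 0, 18.4 and 98.6 CPM to 0, 4.31 and 57.9 CPM, with overlapping ranges and a difference of -2.10 (SE 1.10, adjusted p = 0.13). PSMD1 had a 4-cell median of 373 CPM and a morula median of 193 CPM in vivo, and 278 and 161 CPM in vitro, where the difference was -0.66 (SE 0.23, adjusted p = 0.019). PSMD2 stayed between 111 and 334 CPM in all in vivo 4-cell embryos and morulae, and its difference was -0.09 (SE 0.35, adjusted p = 0.84).

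The lid, which holds the deubiquitinase of the cap, split in 2 directions, with lower calls in vitro only. Of its 8 genes, 4 were called higher in vivo, and 5 higher and 2 lower in vitro. At an adjusted p under 0.05, 5 were higher and 2 lower in each source. All genes stood at 27.9% and 17.3% there in vivo and at 24.1% and 34.1% in vitro. PSMD14, that deubiquitinase, was at 48.3, 77.5, 0, 41.2 and 31.6 CPM in in vivo 4-cell embryos and at 195, 409 and 592 CPM in morulae, a rise of 4.07 log2 units (SE 0.71, adjusted p = 0.000103). PSMD6 rose in vivo by 3.85 (SE 0.60, adjusted p = 2.9e-05), from 0, 15.5, 37.6, 12.3 and 24.1 CPM to 113, 168 and 220 CPM. In vitro PSMD6 had the largest lid step, 4.60 (SE 0.25, adjusted p = 6.1e-12), from 15.9, 6.59, 6.05, 8.83 and 9.27 CPM to 163, 230 and 434 CPM. None of these 3 pairs of ranges overlapped. PSMD13 rose in vitro by 3.09 (SE 0.27, adjusted p = 2.6e-09), from a median of 25.9 to 241 CPM.

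Against the other lid genes, PSMD3 and PSMD11 were called lower in vitro, and in vivo they differed in the same direction without a call by limma. PSMD3, a scaffold of the lid, was at 64.5, 54.3, 41.4, 29.8 and 33.2 CPM in in vitro 4-cell embryos and at 3.25, 14.0 and 19.8 CPM in morulae, so that all 10 morulae were below all 5 4-cell embryos (-1.89 log2 units, SE 0.37, adjusted p = 0.000144). In vivo it was at 26.2, 90.8, 5.34, 66.8 and 49.9 CPM and then 0, 1.94 and 66.3 CPM, a difference of -2.88 with overlapping ranges that was not called (SE 0.88, adjusted p = 0.012). PSMD11 went from 338, 495, 387, 401 and 351 CPM to 97.2, 148 and 231 CPM in vitro, again without overlap (-1.41, SE 0.20, adjusted p = 2.6e-06). The in vivo values were 603, 326, 169, 503 and 325 CPM and then 81.5, 136 and 173 CPM (-1.45, SE 0.34, adjusted p = 0.00167), with 8 of 10 morulae below all 4-cell embryos.

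**Figure D3:**
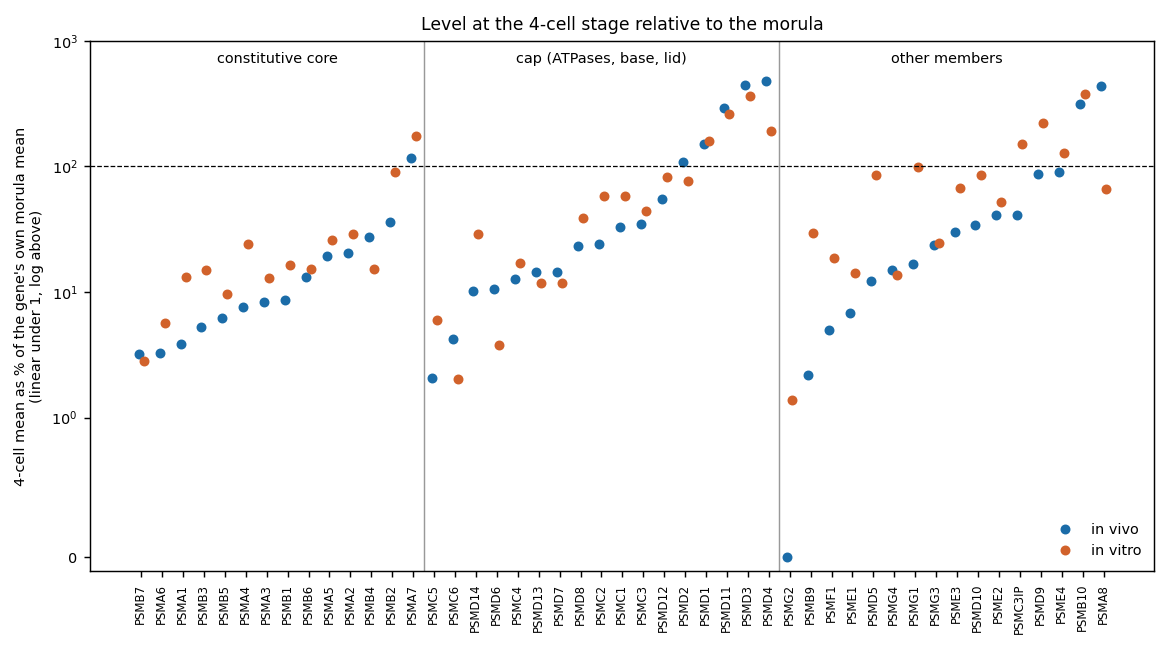
The mean CPM of each proteasome gene in 4-cell embryos as a percentage of its own mean in morulae of the same source (y axis, linear under 1 and logarithmic above), with genes along the x axis and source by colour. In vivo 14 genes lie under 10% and 8 at 100% or more, and in vitro 7 and 9, out of 47 with a morula mean above 0. The shares were not computed for all genes.

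Expressed as a share of the gene's own mean in morulae, the 4-cell level was under 10% for 14 members in vivo and 7 in vitro, and at 100% or more for 8 and 9. These shares were not computed for all genes, and the in vivo 4-cell means include embryo C1. The lowest in vivo shares among the constitutive core and cap subunit genes were 2.05% for PSMC5, 3.21% for PSMB7 and 3.25% for PSMA6. At the other end of these classes, also in vivo, PSMD4 stood at 474%, PSMD3 at 448% and PSMD11 at 293% of the morula mean. The same 3 genes were at 192%, 362% and 262% in vitro. PSMB8 had no share, since its mean in morulae was 0.

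Assembly chaperones included the widest step of all members. PSMG2 (gene 100622916, chromosome 6, 96879009 to 96893551), which with PSMG1 forms a clamp that starts the alpha ring, was listed at 0 for each of the 5 in vivo embryos of the 4-cell stage and reached 96.7, 255 and 330 CPM in the morulae. The 4 of these 4-cell embryos with recovered reads had 0 reads of it, which allows up to 0.132 CPM (3 reads over the group, counting error only). Against the pooled 219 CPM of morulae this limit gives a fold of at least 1661. The limit does not cover transcripts lost in these embryos, for which the study describes lower RNA quality and cDNA yield. The fitted step was 7.72 log2 units (SE 0.39, adjusted p = 1.7e-11). In vitro 4-cell embryos had 5.78, 1.98, 0, 0 and 1.20 CPM and morulae 85.8, 124 and 217 CPM, a rise of 5.88 (SE 0.37, adjusted p = 2.8e-11). Its partner PSMG1 was not called in vitro (0.03, SE 0.20, adjusted p = 0.92), where 4-cell embryos held 211, 177, 131, 236 and 270 CPM and morulae 155, 208 and 259 CPM. In vivo PSMG1 was at 26.0, 69.0, 0.445, 123 and 0.147 CPM and then at 177, 260 and 340 CPM, without overlap (4.28, SE 0.84, adjusted p = 0.000341), and the call was lost without 4-cell embryo C1 (adjusted p = 0.00108) or E1 (adjusted p = 0.00111).

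PSMG3 and PSMG4, the other chaperone pair of the core, had steps of 2.60 and 2.69 in vivo and 1.83 and 2.19 in vitro, of which PSMG3 in vivo was not called (adjusted p = 0.00247). Without 4-cell embryo E1, limma called PSMG3 in vivo (adjusted p = 0.00035). The in vivo calls of PSMA2 and PSMD7 were each lost in 1 of 5 fits that left out a 4-cell embryo (adjusted p = 0.00167 and 0.00143), and that of PSMG4 in 4 of 5 (adjusted p 0.00154 to 0.00353). In vitro PSMG4 was at 1.75, 1.10, 2.91, 2.31 and 1.20 CPM and then at 3.69, 10.6 and 31.4 CPM, without overlap (SE 0.40, adjusted p = 6.3e-05). Among the chaperones of the cap, PSMD5 rose in vivo by 3.92 log2 units (SE 0.81, adjusted p = 0.00055), from 15.0, 7.37, 0, 84.7 and 60.6 CPM to 55.5, 331 and 431 CPM, with 9 of 10 morulae above all 4-cell embryos. Without A1 or B1 that call was lost (adjusted p = 0.00156 and 0.00218). PSMD9 fell in vitro (-1.08, SE 0.25, adjusted p = 0.000757), from 107, 62.9, 137, 136 and 65.2 CPM to 33.7, 41.4 and 65.2 CPM, and the call was lost without 4-cell A1, C1 or D1 (adjusted p 0.00271 to 0.00425). PSMD10 was called in neither source (1.41 in vivo and 0.15 in vitro).

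The inhibitor PSMF1 (gene 100152620, chromosome 17, 34118324 to 34164723), a protein that binds the ends of the core, was listed at 0, 10.6, 0, 0.380 and 0 CPM in in vivo 4-cell embryos and at 24.7, 42.3 and 67.2 CPM in morulae (4.60, SE 0.55, adjusted p = 1.1e-06). In vitro 4-cell embryos had 4.91, 14.9, 4.12, 8.83 and 9.57 CPM and morulae 12.3, 48.7 and 66.1 CPM (2.30, SE 0.35, adjusted p = 6.5e-06). The in vivo ranges were apart, while in vitro the lowest morula lay below the highest 4-cell embryo.

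Between morula and hatched blastocyst the changes were fewer and smaller. In in vivo embryos 4 of 47 members tested were called higher (5.81% of all genes) and 0 lower (3.14%), with a median of 0.36 log2 units beside 0.01 for all genes. The 4 were PSMA7, PSMB10, PSME1 and PSMG4, and edgeR and DESeq2 called the same 4. At an adjusted p under 0.05, 12 members were higher and 1 lower (15.6% and 10.1%), and at an unadjusted p under 0.05, 15 and 1. In in vitro embryos 10 of 47 were called higher (9.98%) and 1 lower (10.2%), with medians of 0.37 and -0.11, and edgeR and DESeq2 called the same 11. Without the size condition, at an adjusted p under 0.05, 21 were higher and 4 lower (19.4% and 24.6%). The median of the members was -0.05 when each embryo's CPM was rescaled to sum to 1000000, which turned 10 higher and 1 lower into 6 and 2. All 4 of the in vivo genes were among the 10 in vitro genes, which is 100% of the shorter and 40% of the longer list. PSMB8 was left out of these tests because no morula or hatched blastocyst exceeded 0.5 CPM.

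Of the catalytic genes, PSMB5 was called higher in vitro only (1.55, SE 0.17, adjusted p = 1.9e-08), where morulae at 162, 291 and 483 CPM gave way to hatched blastocysts at 590, 849 and 1127 CPM without overlap. In vivo it went from 239, 445 and 820 CPM to 469, 774 and 985 CPM (0.76, SE 0.23, adjusted p = 0.015). The difference between these 2 steps was 0.79 (SE 0.29, adjusted p = 0.046), which was not called. PSMB7 rose in vitro by 0.89 log2 units at an adjusted p of 9.0e-06, under the size needed for a call, to 625, 877 and 1114 CPM. PSMB6 was at 520, 768 and 1101 CPM in in vivo and 464, 712 and 976 CPM in in vitro hatched blastocysts, with differences from the morulae of -0.35 (adjusted p = 0.25) and 0.02 (adjusted p = 0.92). Its ranges overlapped with those of the morulae in both sources.

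Core genes accounted for 1 of the 4 in vivo and 4 of the 10 in vitro calls. PSMA7, which had not risen to the morula, rose afterwards in both sources, by 1.45 in vivo (SE 0.23, adjusted p = 3.0e-05) and 1.16 in vitro (SE 0.18, adjusted p = 6.4e-06). Its hatched blastocysts held 268, 385 and 519 CPM in vivo and 263, 378 and 560 CPM in vitro, against morulae at 71.9, 140 and 299 CPM and 93.6, 175 and 281 CPM. Only the edges of these ranges overlapped, with 9 of 10 in vivo hatched blastocysts above all morulae. PSMA4 rose in vitro by 1.42 (SE 0.16, adjusted p = 6.9e-08), from 123, 203 and 368 CPM to 439, 526 and 759 CPM. PSMA3 rose there by 1.25 (SE 0.17, adjusted p = 7.0e-07), from 241, 336 and 625 CPM to 654, 814 and 1259 CPM. Neither gene's in vitro ranges overlapped, and PSMA3, PSMA4 and PSMA7 were not called in vitro once CPM were rescaled to 1000000. Of the 17 cap subunit genes, 0 were called in either source by limma, edgeR and DESeq2, with 7 in vivo and 8 in vitro at an unadjusted p under 0.05. These counts lie at an edge: PSMC6 differed by 0.997 log2 units in vitro (adjusted p = 5.2e-05), just under the size for a call, and was called in 12 of the 20 fits that left out 1 embryo, and PSMC1 (1.30 in vivo, adjusted p = 0.0021) was called without morula A3, B2 or H2.

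Of the chaperones, PSMG4 rose in both sources. It went from 3.64, 16.0 and 28.1 CPM to 32.7, 46.7 and 66.3 CPM in vivo, without overlap (1.69, SE 0.26, adjusted p = 1.5e-05). In vitro it went from 3.69, 10.6 and 31.4 CPM to 26.9, 46.2 and 91.0 CPM (1.90, SE 0.27, adjusted p = 2.5e-06), with overlap at the edges. PSMD9 rose in vitro by 1.08 (SE 0.20, adjusted p = 6.1e-05), from 33.7, 41.4 and 65.2 CPM to 50.3, 97.1 and 183 CPM, a call lost with CPM rescaled to 1000000 and without hatched blastocyst D3 (0.98 log2 units).

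Immunoproteasome transcripts were scarce at every stage, and between morula and hatched blastocyst PSMB10 was called higher in both sources and PSMB9 in vitro. Summed over PSMB8, PSMB9 and PSMB10, the median was 0.404, 1.22 and 11.9 CPM in in vivo 4-cell embryos, morulae and hatched blastocysts, and 1.10, 0.564 and 9.25 CPM in vitro. PSMB10 (gene 733626, chromosome 6, 28544910 to 28547609), the interferon-inducible counterpart of PSMB7, was at 0 in 4 of 5 in vivo 4-cell embryos and at 6.67 CPM in A1. It was at 0, 0.157 and 2.43 CPM in in vivo morulae and 3.22, 9.55 and 25.2 CPM in hatched blastocysts. The stages did not overlap, and the rise was 2.99 log2 units (SE 0.32, adjusted p = 9.0e-08).

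In vitro PSMB10 was at 0.526, 1.10, 1.94, 0.841 and 0.299 CPM at the 4-cell stage, 0, 0 and 1.58 CPM at the morula stage and 1.58, 3.04 and 6.45 CPM in hatched blastocysts. The last step was 1.78 (SE 0.25, adjusted p = 1.5e-06). From the 4-cell stage to the morula PSMB10 was called in neither source (-0.20 in vivo, adjusted p = 0.70, and -0.65 in vitro, adjusted p = 0.024). These levels rest on 617 reads in 35 of 49 embryos.

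PSMB9 (gene 654294, chromosome 7, 25072133 to 25077508), the counterpart of PSMB6, had 472 reads in 36 of 49 embryos. In vivo it had 0 reads in the 4 4-cell embryos that entered count tests and 125 reads in the morulae. The 4-cell embryo B1, at 0.404 CPM of PSMB9, entered no count test. DESeq2, without B1, called that step (6.73 log2 units, adjusted p = 0.000627), and limma, with B1, did not. In vitro morulae at 0, 0.564 and 1.83 CPM were followed by hatched blastocysts at 0, 6.09 and 9.74 CPM (1.82, SE 0.36, adjusted p = 0.000154), the 0 being embryo D3, which had under 2 M reads. In vivo the values were 0, 1.06 and 17.4 CPM and then 0.657, 2.84 and 4.83 CPM (0.38, SE 0.47, adjusted p = 0.59), with wide overlap. The difference of the steps was 1.44 (SE 0.61, adjusted p = 0.092) and was not called.

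PSMB8 (gene 396975, chromosome 7, 25058456 to 25061666), the counterpart of PSMB5, was near 0 throughout. It had 16 reads in 5 of 49 embryos: in vivo 4-cell D1 (1.52 CPM), in vitro 4-cell A1 (0.876 CPM) and C1 (0.242 CPM), and 2 in vitro hatched blastocysts with 2 reads between them. In in vivo morulae, in vivo hatched blastocysts and in vitro morulae the count was 0, which allows up to 0.0708, 0.0717 and 0.0700 CPM. Its step from the 4-cell stage was -0.27 in vivo (adjusted p = 0.25) and -0.24 in vitro (adjusted p = 0.14).

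The activators PSME1 and PSME2, an interferon-inducible pair that opens the core without ATP, were low, and from morula to hatched blastocyst PSME1 was called higher in both sources and PSME2 in vitro. PSME1 (gene 397572, chromosome 7, 75161830 to 75164531) was at 0 in 4 of 5 in vivo 4-cell embryos and 3.99 CPM in D1, at 6.88, 12.7 and 16.5 CPM in morulae and at 20.9, 28.2 and 38.3 CPM in hatched blastocysts. No stage overlapped with the next, and the steps were 3.15 (SE 0.49, adjusted p = 2.9e-05) and 1.23 (SE 0.20, adjusted p = 3.3e-05). In vitro it was at 2.98, 0.879, 2.66, 2.94 and 0.299 CPM, then 2.09, 11.9 and 37.2 CPM, then 32.8, 43.5 and 66.4 CPM. The first of these steps was 2.11 (SE 0.51, adjusted p = 0.00108), just short of a call, and the second 2.01 (SE 0.33, adjusted p = 1.3e-05).

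PSME2 (gene 397522, chromosome 7, 75154570 to 75157871) was called in vitro from morula to hatched blastocyst, from 0, 1.62 and 5.30 CPM to 3.77, 11.4 and 23.2 CPM (2.28, SE 0.34, adjusted p = 4.3e-06). In vivo it went from 0, 3.78 and 6.97 CPM to 5.03, 9.21 and 18.7 CPM (1.71, SE 0.44, adjusted p = 0.0044), and neither 4-cell to morula step was called (0.64 in vivo and 0.58 in vitro). Its ranges overlapped in both sources.

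PSME3 (gene 397625, chromosome 12, 20028112 to 20035865), a nuclear activator, was at 49.3, 5.85, 0, 60.4 and 103 CPM in in vivo 4-cell embryos, 88.1, 126 and 238 CPM in morulae and 147, 183 and 216 CPM in hatched blastocysts. In vitro it was at 127, 118, 62.0, 168 and 150 CPM, then 119, 182 and 287 CPM, then 109, 127 and 151 CPM. No step was called, the largest being 2.88 in vivo from the 4-cell stage (SE 0.78, adjusted p = 0.0052). PSME4, an activator that works without ubiquitin, kept group medians between 149 and 216 CPM, and its 4 steps lay between -0.34 and 0.25 log2 units.

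PSMF1 was not called between morula and hatched blastocyst, at 7.34, 29.2 and 54.1 CPM in in vivo (-0.50, adjusted p = 0.19) and 19.5, 26.1 and 48.4 CPM in in vitro hatched blastocysts (-0.53, adjusted p = 0.069).

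PSMA8 (gene 100513739, chromosome 6, 110799065 to 110836937) was the only member called lower in this step, in vitro and not in vivo. It was at 1.79, 8.88, 0, 27.0 and 0 CPM in in vivo and 18.4, 19.6, 16.2, 14.7 and 20.6 CPM in in vitro 4-cell embryos. In vivo morulae held 0, 1.22 and 6.78 CPM and in vitro morulae 0.214, 14.7 and 150 CPM, the highest being B2, the morula with the most oocyte transcripts. Hatched blastocysts held 0.351, 0.639 and 4.31 CPM in vivo and 0, 1.38 and 4.35 CPM in vitro. In vitro it fell by 2.68 log2 units (SE 0.55, adjusted p = 0.000225), and without B2 it was -2.31 (adjusted p = 0.000206). In vivo the difference was 0.00 (SE 0.37, adjusted p = 0.99). The part of the oocyte transcripts in these levels was not tested.

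At the hatched blastocyst stage, the stage at which the study set the sources side by side, most members differed little. Of 47 members, 0 were called higher in vitro (2.07% of all genes) and 2 lower (2.20%), with a median of -0.01 for members and for all genes alike. At an unadjusted p under 0.05, 3 members were higher and 6 lower, and edgeR and DESeq2 called the same 2. The 14 core genes had a median of 0.02 (range -0.23 to 0.26) and the 17 cap genes 0.01 (-0.43 to 0.61). The catalytic genes differed by 0.12 for PSMB5 (95% interval -0.16 to 0.41), -0.08 for PSMB6 and -0.04 for PSMB7.

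The 2 genes called were PSMB10 and PSMG3. PSMB10 was at 3.22, 9.55 and 25.2 CPM in in vivo and 1.58, 3.04 and 6.45 CPM in in vitro hatched blastocysts, with overlapping ranges and 418 against 114 reads. The difference was -1.34 (SE 0.28, 95% interval -1.92 to -0.77, adjusted p = 0.000858). The call was lost in 15 of the 20 fits that left out 1 embryo, with adjusted p-values from 0.00104 to 0.00230, while the direction stayed. PSMG3 (gene 100521490, chromosome 3, 1052185 to 1054716), a core chaperone, was at 23.5, 38.2 and 45.1 CPM in vivo and 5.58, 12.4 and 32.2 CPM in vitro (-1.32, SE 0.24, 95% interval -1.81 to -0.83, adjusted p = 0.000182). Leaving out any single hatched blastocyst kept this call. PSMG4, its partner, differed by 0.03 (adjusted p = 0.92).

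**Figure D4:**
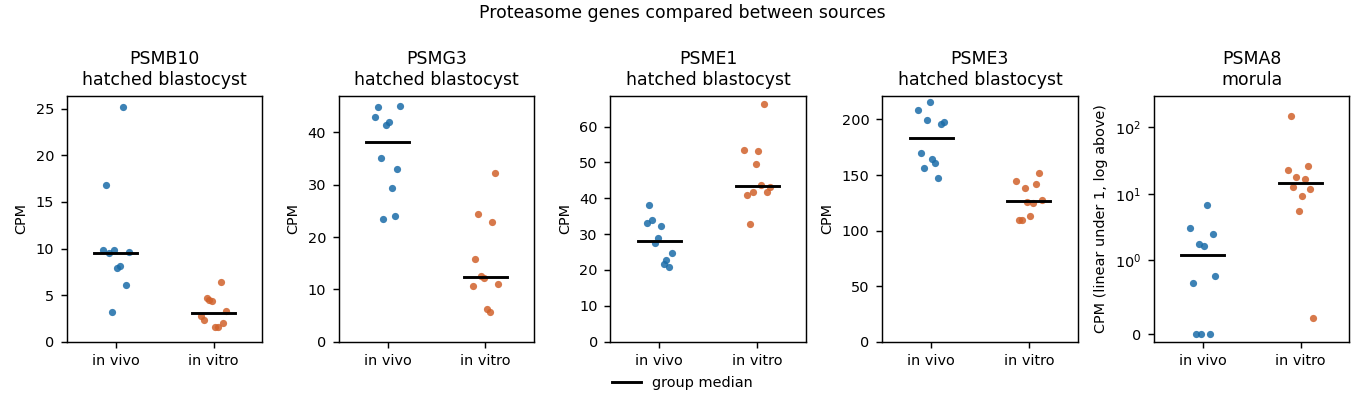
CPM in every embryo (y axis) of the 2 proteasome genes called between sources at the hatched blastocyst stage, PSMB10 and PSMG3, of PSME1 and PSME3 at the same stage, and of PSMA8 in morulae on an axis that is linear under 1 and logarithmic above, with a bar at the group median. The in vitro median is lower for PSMB10 (3.04 against 9.55 CPM) and PSMG3 (12.4 against 38.2), and higher for PSMA8 (14.7 against 1.22), and the ranges overlap in all 5 panels.

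Of the other genes, PSME1 was higher in vitro by 0.70 (SE 0.14, adjusted p = 0.000517) and PSME3 lower (-0.49, SE 0.10, adjusted p = 0.00093), both under the size needed for a call. At an adjusted p under 0.05, 2 members were higher and 4 lower, where 9.67% and 12.5% of all genes were. The remaining 2 of these 6, named after their values were seen, were PSMD8 (0.56, adjusted p = 0.016) and PSMC3IP (-0.64, adjusted p = 0.011). PSMB9 differed by 0.65 (SE 0.34, adjusted p = 0.18). The summed leukocyte genes differed between these groups too, through AIF1, and their part in these differences was not tested.

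Between morulae of the 2 sources 0 of 47 members were called by limma (1.50% of all genes higher and 0.977% lower), with 3 higher and 7 lower at an unadjusted p under 0.05, while edgeR and DESeq2 each called 1, PSMA8. The count was 1 higher and 3 lower at an adjusted p under 0.05 (11.1% and 6.56% of all genes). PSMA8 was higher in vitro by 2.75 (SE 0.58, adjusted p = 0.0018), and by 2.38 without B2 (adjusted p = 0.0025). The next lowest p-values belonged to PSMA4 (-0.89, SE 0.25, adjusted p = 0.0136), at 179, 429 and 663 CPM in vivo and 123, 203 and 368 CPM in vitro, and to PSMC6 (-0.78, SE 0.24, adjusted p = 0.027), at 146, 413 and 539 CPM and 107, 229 and 357 CPM. The core median was -0.45 and the cap median 0.27, beside 0.11 for all genes, and the median of all members was -0.15 but 0.10 with CPM rescaled to 1000000. The number of genes with reads and the trophectoderm genes differed between these groups, as given above, and 6 of the 9 oocyte genes were called higher in in vitro morulae (median 3.14 log2 units, sums of 67.7 to 2079 CPM against 8.16 to 41.9 CPM). The part of these differences in the values of PSMA8 and the other members was not tested.

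Between 4-cell embryos 0 of 48 members were called by limma, as were 0% of all genes in either direction, with 8 higher and 1 lower at an unadjusted p under 0.05, while edgeR called 0 and DESeq2 called 1, PSMF1. The members' counts were again 0 at an adjusted p under 0.05, with 5.45% of all genes higher and 0.301% lower. The lowest p-values belonged to PSMG1 (3.93, SE 1.14, adjusted p = 0.054) and PSMC3IP (2.68, SE 0.84, adjusted p = 0.065), for both of which every in vitro exceeded every in vivo embryo, and to PSMF1 (2.32, SE 0.80, adjusted p = 0.084). PSMC3IP was at 27.2, 4.74, 0, 13.5 and 13.5 CPM in vivo and 55.0, 46.6, 33.4, 45.8 and 84.0 CPM in vitro. The median of the members was 0.85, beside 0.66 for all genes, but 0.44 beside 0.53 with CPM rescaled to 1000000, 0.22 beside 0.80 with edgeR and 0.23 beside 0.82 with DESeq2, with 10914 against 16554 genes with reads at the median of the groups.

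The stage steps themselves were compared between sources by an interaction of source and stage. From the 4-cell stage to the morula limma called 0 of 48 members (0.372% of all genes higher and 2.80% lower), while edgeR and DESeq2 called 2 each, PSMG2 and PSMF1. At an unadjusted p under 0.05, 0 members were higher and 15 lower, and all genes were not counted at that threshold. There were 0 higher and 10 lower at an adjusted p under 0.05 (2.26% and 17.1%). The lowest p-values belonged to PSMG1 (-4.26, SE 0.91, adjusted p = 0.0012), PSMD5 (-3.49, SE 0.93, adjusted p = 0.0077) and PSMC3IP (-2.37, SE 0.65, adjusted p = 0.0096), whose steps were smaller in vitro. The median was -1.10 for the core and -0.54 for the cap, beside -0.39 for all genes. Without in vivo 4-cell embryo C1 the median of all members moved from -0.93 to -0.44, and it was -0.36 (all genes -0.21) with CPM rescaled to 1000000, -0.63 (all genes -0.67) with edgeR and -0.48 (all genes -0.50) with DESeq2.

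From morula to hatched blastocyst limma and edgeR called 0 of 47 (1.79% of all genes higher and 2.70% lower), with 5 higher and 6 lower at an unadjusted p under 0.05, and DESeq2 called PSMA8. At an adjusted p under 0.05, 3 were higher and 5 lower (6.98% and 12.2%). The lowest p-values were those of PSMA8 (-2.68, SE 0.71, adjusted p = 0.0055, and -2.31 without B2), PSMG3 (-1.41, SE 0.38, adjusted p = 0.0058) and PSME3 (-0.88, SE 0.25, adjusted p = 0.0089). PSMG3 was at 8.63, 23.5 and 46.0 CPM in in vivo and 17.4, 20.7 and 44.0 CPM in in vitro morulae, so the sources overlapped before the hatched blastocyst stage. The median was 0.43 for the core and -0.40 for the cap, and that of all members was 0.21 but -0.05 with CPM rescaled to 1000000.

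Summed over their genes, core transcripts followed the single genes. The 14 core genes summed to a median of 1282 CPM (605 to 1677) in in vivo 4-cell embryos, 8240 CPM (3553 to 12240) in morulae and 9228 CPM (4981 to 12589) in hatched blastocysts. In vitro the medians were 1380 CPM (1092 to 2148), 5197 CPM (4346 to 8336) and 8821 CPM (6736 to 11807). As a share of all reads assigned to genes this was 0.161%, 0.765% and 0.745% in vivo and 0.146%, 0.612% and 0.763% in vitro. The 17 cap genes summed to 1640, 3252 and 3586 CPM in vivo and 1652, 3036 and 3444 CPM in vitro at the medians. As a share of all reads assigned to genes this was 0.206%, 0.289% and 0.304% in vivo and 0.170%, 0.359% and 0.303% in vitro. The later in vitro step of the cap was thus upward in summed CPM and downward in share.

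**Figure D5:**
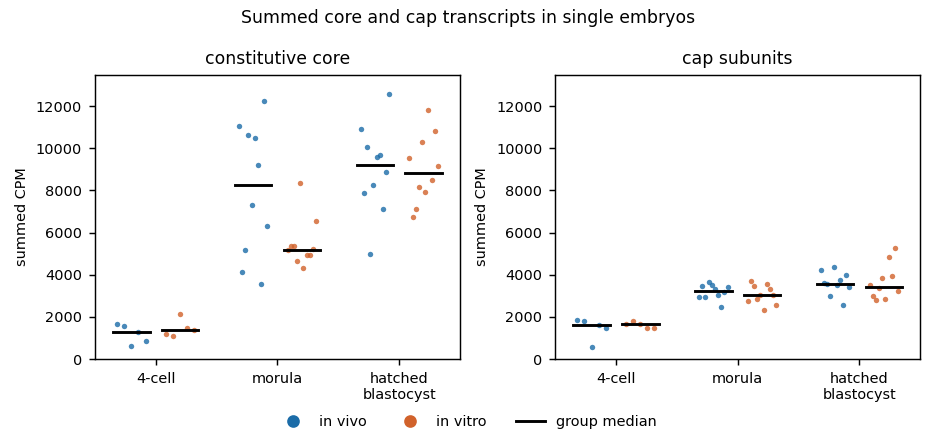
Summed CPM of the 14 constitutive core genes (left) and the 17 cap subunit genes (right) in every embryo (y axis, from 0), by stage and source, with bars at the group medians. Core sums lie at 2148 CPM or less in all 4-cell embryos and at 3553 CPM or more in all later embryos.

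In some embryos most core genes lay on the same side of their group medians, and how many of all genes did so was not counted. In vivo morula G1 had 13 of 14 core genes below their group medians (median deviation -1.25 log2 units), as had A3 (-0.92) and B2 (-0.63), whereas H1 had 13 above (0.62). The median deviation of the cap was 0.06 in G1, 0.49 in A3, -0.14 in B2 and -0.63 in H1. All values of G1, A3 and B2 summed to 832029, 870315 and 920529 CPM and those of H1 to 1279440, and the part of this total in the core values was not tested. In vivo hatched blastocyst D3 had all 14 core genes below the group medians (-0.87) and in vitro morula E2 all 14 above (0.68).

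Genes that work with the proteasome were read from 5 lists. Of the 19 genes of proteasome-associated proteins, 4 were called higher and 1 lower in vivo from the 4-cell stage to the morula and 5 and 4 in vitro, with list medians of 0.92 and 0.59 log2 units. Over all genes 14.9% were called higher and 7.86% lower in this step in vivo, and 16.0% and 22.7% in vitro, with medians of 0.21 and -0.14, and the counts of each of the 5 lists stand beside these shares. In the later step the shares over all genes were 5.81% and 3.14% in vivo and 9.98% and 10.2% in vitro, and between hatched blastocysts 2.07% and 2.20%. POMP, the maturation factor built into every new core, rose with the core, from 4-cell medians of 30.3 CPM in vivo and 23.2 CPM in vitro to 626 and 388 CPM (4.01, SE 0.38, and 3.98, SE 0.21). It rose again in vitro to 792 CPM (1.03, adjusted p = 1.2e-06) but was not called in vivo, at 704 CPM (0.17, adjusted p = 0.62). UBQLN1, a shuttle for ubiquitinated proteins, rose in vivo by 3.81, and UBQLN4, another shuttle, in vitro by 2.91. PAAF1, a chaperone-like partner of the ATPases, rose in vitro by 2.64.

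AKIRIN2, which binds the proteasome for its import into the nucleus, fell (-2.63 in vivo and -4.12 in vitro), and ZFAND2A, a stress-induced proteasome partner, fell in vitro (-3.46). USP14, a deubiquitinase of the cap, fell in vitro (-1.11, SE 0.18, adjusted p = 1.0e-05) and differed by -0.93 in vivo (adjusted p = 0.036). The other named cap partners, the ubiquitin receptor ADRM1, SEM1 and the deubiquitinase UCHL5, were not called in any step, with steps of 0.91, 0.76 and 0.92 in vivo and 1.22, 0.59 and 0.10 in vitro from the 4-cell stage. In the next step the list had 0 calls in vivo by limma (4 higher at an adjusted p under 0.05) and 2 higher in vitro, POMP and ECPAS (1.09), a scaffold that tethers proteasomes. At the hatched blastocyst stage 0 of the 19 were called between sources (3 higher and 2 lower at an adjusted p under 0.05), at the morula stage ZFAND5, an activator of degradation, was higher in vitro by 1.23, and the first step of PITHD1 was smaller in vitro (-2.92, SE 0.56, adjusted p = 0.000465).

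In the transcription factor pathway, 10 of 12 listed genes were tested. NFE2L1, the factor that drives proteasome genes when the proteasome is inhibited, fell in vitro from a 4-cell median of 31.7 CPM to 15.2 CPM (-1.30, SE 0.27, adjusted p = 0.000213) and was not called in vivo (25.1 to 16.2 CPM, -1.03, adjusted p = 0.087). From morula to hatched blastocyst it differed by 0.46 in vivo (adjusted p = 0.22) and 0.81 in vitro (adjusted p = 0.000739), under the size for a call. In the first step 2 genes of this list were called higher and 1 lower in vivo, and 2 and 3 in vitro. KEAP1, the inhibitor of the related NFE2L2, rose by 3.75 and 3.16, NFE2L2 rose in vivo by 3.43 and NFE2L3 in vitro by 1.90. MAFG, a small partner of these factors, fell (-2.47 in vivo and -2.72 in vitro), and NGLY1, the glycanase that matures NFE2L1, fell in vitro (-1.52).

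In the second step BACH1, a repressor that competes with NFE2L2, rose by 1.65 and 2.16, KEAP1 rose in vitro by 1.45 and NGLY1 fell there (-1.93), a step that differed from the in vivo step by -1.03 (SE 0.21, adjusted p = 0.000324). Between the hatched blastocysts BACH1 and MAFF were higher in vitro by 1.04 and 1.59.

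The ubiquitin list had 2 of 6 genes called higher in each source in the first step, beside 14.9% and 16.0% of all genes. RPS27A, which encodes ubiquitin fused to a ribosomal protein, rose by 7.42 in vivo, from a median of 8.48 to 2026 CPM, and by 6.15 in vitro, from 13.2 to 1356 CPM. In the second step UBA6, a ubiquitin-activating enzyme, rose in vivo by 1.51, and 0 genes of this list were called in vitro by limma (3 higher at an adjusted p under 0.05) or between sources at any stage (at an adjusted p under 0.05, 1 lower at the hatched blastocyst stage).

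VCP, an unfoldase that hands substrates to the proteasome, and its cofactors had 5 of 15 called higher in vivo, and 9 higher and 1 lower in vitro. UBXN1 and UBXN7, cofactors with a ubiquitin-like domain, rose in vivo by 4.12 and 4.10. UBXN7 rose in vitro by 4.90 and VCP itself by 3.95, where in vitro 4-cell embryos had a median of 18.7 CPM of VCP against 93.4 CPM in vivo. The VCP step was larger in vitro by 3.24 (SE 0.58, adjusted p = 0.00022). UBXN4, a membrane cofactor, fell in vitro (-2.49) and then rose (1.47), while UBXN2A (-1.49) and UBXN7 (-1.12) fell in that later in vitro step, in which 1 was called higher and 3 lower. The later step of UBXN2A differed between sources by -1.02 (SE 0.22, adjusted p = 0.00083), and in vivo 0 of the 15 were called in it by limma (3 higher and 1 lower at an adjusted p under 0.05).

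The antigen processing and interferon list, which holds partners of the immunoproteasome, had 1 of 16 genes called higher and 3 lower in vivo in the first step, and 3 of 17 higher and 5 lower in vitro, where lower calls outnumbered higher ones over all genes too (22.7% against 16.0%). JAK1, a kinase of interferon signalling, fell (-4.56 in vivo and -4.22 in vitro). ERAP1, a peptide trimmer, fell by 4.37 in vitro. CALR, a chaperone of antigen loading, rose by 3.99 and 3.17, and STAT2 in vitro by 3.06. IRF1, an interferon-induced activator of immunoproteasome genes, was called in no comparison (-0.61 and -0.67 in the first step, -0.01 and -0.47 in the second).

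TAP1, the peptide transporter whose gene neighbours PSMB9, was not called in the first step (2.04 in vivo and 1.21 in vitro) and rose in vitro in the second by 3.18 (SE 0.45, adjusted p = 1.6e-06), while the in vivo step was 0.93 (adjusted p = 0.15), and the difference between the steps, 2.24, was not called (SE 0.67, adjusted p = 0.014). In the second step STAT2 fell in vivo (-1.92), IFNGR1, an interferon-gamma receptor chain, fell in vitro (-3.20), IFNAR1, a receptor chain for type I interferon, fell there (-1.82), and PDIA3, which helps load peptides, rose there by 1.35. Between hatched blastocysts 3 of 17 were called higher and 1 lower in vitro. Among them TAP1 was at medians of 27.6 against 6.49 CPM (1.91, SE 0.25, adjusted p = 2.2e-06), STAT2 differed by 1.01 and CALR by -1.47. Of the immunoproteasome and activator genes in the same comparison only PSMB10 was called, and it was lower in vitro.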

How the data were processed

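Single embryos were sequenced with Smart-seq2. Per the labels and the study's methods, the authors trimmed reads with Trim Galore, aligned them to the pig genome (Sus scrofa 11.1) with HISAT2, checked quality with FastQC and MultiQC, and normalised counts with edgeR. Neither versions nor the tool that counted reads, nor the release of the annotation, are given in the sources used here. The deposited signal values are CPM per effective library size, so an embryo's values need not sum to 1000000, and tables agree for the same embryo within 8.4e-10 CPM. Whole reads were recovered from the CPM steps and used for 49 embryos (100% of values within 0.1 reads). In vivo 4-cell B1 entered no count test, although 100% of its values also lay within 0.1 reads. The authors' log2 fold changes and log2 mean levels, likelihood-ratio scores, p-values and FDR, deposited beside the CPM, were not used.

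Groups came from the sample labels. Symbols, coordinates and assembly (Sscrofa11.1) came from the RefSeq gene table, in which all 30321 identifiers had an entry and 17413 a named symbol. Coordinates are 1-based. All genes that passed 0.5 CPM in any embryo entering a comparison were tested with limma 3.58.1 (trend) in R 4.3.3 on log2(CPM + 1), adjusted after Benjamini and Hochberg over all genes, and called at an adjusted p under 0.001 with a log2 fold change over 1 in size. Alternatives were edgeR 4.0.16, DESeq2 1.42.0, a pseudocount of 0.25 CPM, other filters and scalings, an adjusted p under 0.05, and leaving out embryos. Scripts were tested on simulated data. Limits for 0 reads are 3 reads over a group. Intervals and limits cover counting or sampling error only.

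Named were all catalytic, immunoproteasome, tissue-specific, activator and inhibitor genes, up to 2 called genes with the largest change per other class, list, step and direction, called or lowest-p genes between sources, and POMP, NFE2L1, ADRM1, SEM1, USP14, UCHL5, TAP1 and IRF1. The members, the lists and the tests were chosen with earlier results of these data known. DDI2 and HRD1, 2 genes of the lists, had no identifier under these symbols, ECPAS was matched by its older symbol, POMP is annotated as a non-coding RNA, and reads shared with processed copies of a gene could not be told apart. Some genes counted in the lists are not reported here by name.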

Additional observations from a re-analysis of the deposited data

Results flagged for a closer look

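In 13 of 69 gene-by-group sets examined, over 12 members, the highest or lowest embryo lay far from the rest, where chance gives about 1 in 20 for values spread as in a normal distribution, a rate that does not apply to sets in which the other embryos were at 0. At the in vivo 4-cell stage these were PSMB5 in C1 (0.891 CPM), PSMB8 in D1 (1.52 CPM), PSMB9 in B1 (0.404 CPM), PSMB10 in A1 (6.67 CPM), PSME1 in D1 (3.99 CPM) and PSMF1 in B1 (10.6 CPM). In 4 of these 5 genes with a single high embryo, the other embryos were at 0. Among in vivo morulae PSMB10 stood out in B2 (2.43 CPM), and among in vitro morulae PSMB10 in G2 (1.58 CPM), PSMB7 in E2 (717 CPM) and PSMF1 in A3 (12.3 CPM). Among hatched blastocysts these were PSMF1 in in vivo H4 (7.34 CPM), PSME2 in in vivo B3 (18.7 CPM) and PSMB9 in in vitro D3 (0 CPM).

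For 18 member steps the interaction of source and stage had an adjusted p under 0.05 in limma, with no call at 0.001. From the 4-cell stage to the morula all 10 were smaller in vitro: PSMA1 (-2.78 log2 units), PSMA4 (-2.42), PSMB2 (-1.40), PSMC2 (-2.90), PSMD14 (-2.33), PSMD5 (-3.49), PSMG1 (-4.26), PSMG2 (-1.84), PSMF1 (-2.30) and PSMC3IP (-2.37). The 4-cell groups also differed in genes with reads (medians of 10914 in vivo and 16554 in vitro), and the part of this in the differences was not tested. From morula to hatched blastocyst the step was larger in vitro for PSMA4 (1.04), PSMB5 (0.79) and PSMC6 (0.79). It was lower in vitro for PSMB10 (-1.20), PSMA8 (-2.68), PSMG3 (-1.41), PSME3 (-0.88) and PSMC3IP (-0.94). Without in vitro morula B2 the PSMA8 value was -2.31.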

How the results depend on the processing

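Signs were checked only for members called in a comparison or, where none was called, for those with the lowest p. None of these reversed under the alternatives run, and other members were not checked. Rescaling to 1000000 turned the sign of member medians: 0.37 to -0.05 for the later in vitro step, -0.15 to 0.10 between morulae, -0.01 to 0.03 between hatched blastocysts and 0.21 to -0.05 for the second step difference. Counts of called members moved by over 1.5 times as follows. The in vivo 4-cell to morula count of 24 was 12 with edgeR, all 12 among the 24. At an adjusted p under 0.05 of any size, the counts were 13 (from 4) and 25 (from 11) for morula to hatched blastocyst in vivo and in vitro, 6 (from 2) between hatched blastocysts, 4 between morulae, and 10 and 8 for the step differences (from 0). The hatched blastocyst count of 2 was 1 without a filter, with CPM rescaled to 1000000 or by median of ratios, and without embryos under 2 M reads, PSMB10 being lost each time. Between morulae 1 member (PSMA8) was called after the stricter filter, rescaling to 1000000, edgeR and DESeq2, and between 4-cell embryos DESeq2 called 1. For the first step difference the stricter filter gave 1, edgeR and DESeq2 2 each, and for the second DESeq2 gave 1.

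Leaving out 1 embryo at a time gave 22 to 23 calls for the first step in vivo (5 fits, each without a 4-cell embryo), 26 to 28 in vitro (6 fits, without a 4-cell embryo or morula B2), 4 to 5 and 10 to 13 for the later steps (20 fits each), 1 to 2 between hatched blastocysts (20 fits), 0 to 0 between 4-cell embryos (10 fits) and 0 to 3 for the first step difference (11 fits). Between morulae and for the second step difference only B2 was left out, with 0 to 0 calls, so other embryos were not examined there. The first step difference had 1 call without in vivo 4-cell A1, 2 without B1 and 3 without D1.

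Rescaling to 1000000 shifted the median of all genes by over 0.1 log2 units for the later in vitro step (-0.12), morulae (0.11), 4-cell embryos (-0.13) and the first step difference (0.19). Embryo codes shared between sources did not pair the embryos: the correlation of their deviations was over 0.1 for 0 of 6, 2 of 8 and 0 of 5 codes at the hatched blastocyst, morula and 4-cell stages. With the replicate block, 0 members were called between hatched blastocysts, and 0 in the same embryos without the block, a choice made after seeing the data. Depth limits PSMB8, PSMB9, PSMB10 and PSME2 most, at 16, 472, 617 and 1075 reads in all.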
